A study of Arabidopsis thaliana with 4 samples.

Results

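TA plates 17 to 29 are a set of 13 consecutive plates of a tiling array, on which H3K27me3 immunoprecipitates of Arabidopsis thaliana seedlings were hybridised against input DNA. The members were chosen by name alone, as every probe with a value whose name is TA, a plate number from 17 to 29, a row from A to H and a well. This gave 1166 probes of the 21740 with a value in the series. Most of these probes lay below the median of the array. Low values were densest on plates 22 to 27, where a single short island of high probes remained, and islands of high probes stood on both sides, on plates 17 to 21 and on plates 28 and 29.

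H3K27me3, the trimethylation of lysine 27 on histone H3, is written by Polycomb repressive complex 2. In Arabidopsis its catalytic subunits include CURLY LEAF and SWINGER. The mark lies over many genes that are kept silent outside their own stage or tissue, often as a domain over a single gene, whereas transposon-rich heterochromatin of this plant is known for H3K9 methylation and DNA methylation instead. On a tiling array a domain appears as a row of neighbouring high probes, and unmarked DNA appears as a stretch of low ones.

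All material came from untreated wild-type seedlings of ecotype Col-0, aged 10 days and grown in liquid medium under a long photoperiod, so there is 1 group and no mutant or treated control. Immunoprecipitates I and II, called IP I and IP II here and made with a commercial antibody against H3K27me3, were each hybridised against their own input DNA on 2 arrays with the dyes exchanged. The table holds the same value on both arrays of a dye exchange, so each immunoprecipitation gives 1 value per probe and n = 2 throughout. Whether these 2 replicates stem from separate cultures is not in the labels, and p-values measure only the spread between them, which may be technical. Whole seedlings mix many cell types, and a mark on fewer cells cannot be told apart from a weaker mark in all cells.

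Each value is printed on the deposited scale, in units above or below the median of all 21740 probes of the same replicate, which was -0.94 for IP I and -1.20 for IP II before centring. The scale resembles a log ratio, but its base and direction are not stated in any source used. High values are read as immunoprecipitate over input because the array has its long tail on that side, and every statement about high and low probes exchanges its sides if the sign is turned. With 2 replicates the precision is low, and the unstated scale and normalization limit it further. Names are taken in the order of plate, row and well. Whether this order follows the chromosome is not stated in any source used, so neighbouring wells are neighbours by name only. No label or file used here pairs a well with a gene, a sequence or a chromosome position, so no gene is named, and a position at the heterochromatic knob of chromosome 4 was not tested.

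The first comparison asks how the level of the mark on these plates compares with that on TA plates 1 to 16, which precede them in name order. The median of plates 17 to 29 was -0.28 units in IP I and -0.24 in IP II. On plates 1 to 16, with 1535 probes, it was 0.27 and 0.12. The difference was -0.56 units in IP I and -0.36 in IP II (mean -0.46 ± 0.14, SD, n = 2). Both replicates gave the lower level to plates 17 to 29. An exact sign permutation test over the 2 replicate differences gave a two-sided p of 0.5, which is the smallest that 2 replicates allow, so the difference is a description.

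Probes below the array median in both replicates made up 62.2% of plates 17 to 29 (725 probes), against 41.8% of all probes and 29.7% of plates 1 to 16. The lower quartile was -0.53 units in IP I and -0.45 in IP II, and the upper quartile was 0.13 and 0.07. On plates 1 to 16 the upper quartile reached 1.37 and 0.86 units. The shift was therefore larger in the upper part of the distribution than at the median. Among the probes that did not reach the rule for upper probes given next, the difference between the 2 sets of plates was -0.35 units in IP I and -0.24 in IP II.

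An upper probe is one that lay at least 1 unit above the array median in both replicates. Plates 17 to 29 held 89 upper probes (7.63%), whereas 16.2% of all probes on the array and 21.3% of the probes on plates 1 to 16 met the rule. The upper probes here had a median of 2.21 units in IP I and 1.58 in IP II. The corresponding medians on plates 1 to 16 were 2.50 and 1.79 units. With a lower rule of 0.5 units, 12.4% of the members passed (145 probes), against 25.6% of all probes. A further 42 members reached 1 unit in one replicate only, 38 of them in IP I and 4 in IP II.

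The rule draws a line through a continuous range. The members nearest to it on the inner side were TA25F04, at 1.78 units in IP I and 1.01 in IP II, and TA20D05, at 1.81 and 1.02. The nearest on the outer side were TA28G08, at 2.08 and 0.98, and TA28D04, at 2.14 and 0.96. In each of these probes it was IP II that decided the side.

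In limma's moderated test of each probe against the array median, adjusted by Benjamini-Hochberg over all 21740 probes at 0.05, 157 members were called above (13.5%). Over the whole array 27.1% of the probes were called above, and on plates 1 to 16 the share was 34.3%. Another 155 members were called below (13.3%), against 4.81% of the whole array and 1.76% of plates 1 to 16. The remaining 854 members passed on neither side. The number called below depended on the processing. It was 7 members when the array mode replaced the median as zero and 983 when the values were left as deposited. It was 395 with equal spread of the replicates, 417 after quantile normalization, 497 with a trended, robust variance prior and 9 at an adjusted p under 0.01.

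**Figure D1:**
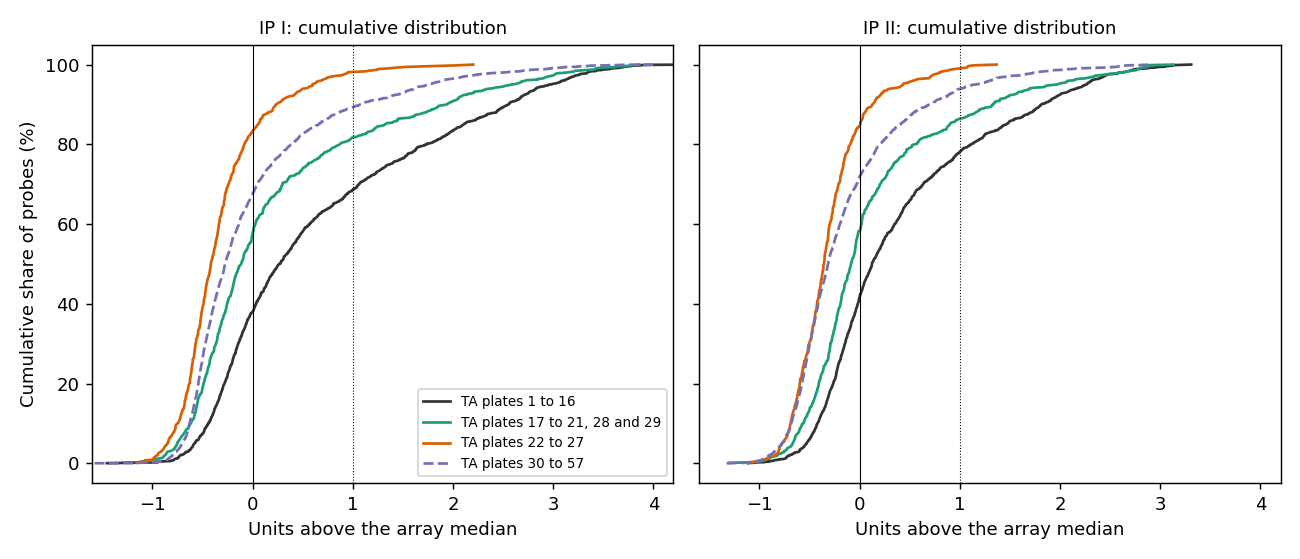
Cumulative share of probes (vertical axis, percent) by value in units above the array median (horizontal axis), for IP I on the left and IP II on the right. The solid vertical line marks the array median and the dotted line 1 unit; the curve of TA plates 22 to 27 lies farthest to the left among the TA 1 to 29 curves, with medians of -0.42 and -0.36 units, and that of TA plates 1 to 16 lies farthest to the right, with medians of 0.27 and 0.12.

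TA plates 30 to 57, which follow in name order, were close in level. Their median was -0.27 units in IP I and -0.31 in IP II, and 5.74% of their 2597 probes were upper probes. Of their probes, 63.5% lay below the array median in both replicates and 15.0% were called below, so these shares were not particular to plates 17 to 29. The difference of plates 17 to 29 from them was -0.01 units in IP I and 0.08 in IP II (mean 0.03 ± 0.06, SD, n = 2). The replicates did not give it the same sign (exact sign permutation p = 1, two-sided).

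The plates of the set were not alike. Plate 18 had a median of -0.09 units in IP I and 0.01 in IP II with 21 upper probes of 96. Plate 20 had a median of 0.03 and 0.13 with 19 upper probes of 91, and it alone had a median above that of the array in both replicates. Plates 22, 23 and 24 held no upper probe, with medians of -0.42, -0.47 and -0.47 units in IP I and -0.42, -0.37 and -0.39 in IP II. Plate 25 was as low in IP I, at -0.47, but had the highest IP II median of plates 22 to 27, at -0.30, and held 3 upper probes. Plates 26 and 27 held none, and their medians were -0.34 and -0.37 units in IP I and -0.35 and -0.33 in IP II.

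Upper probes returned on plate 28, with 12 of 96, and on plate 29, with 12 of 77. The medians of these plates stayed slightly below that of the array, at -0.09 units each in IP I and at -0.16 and -0.09 in IP II. In all, 11 of the 13 plates had a median below 0 in both replicates, against 3 of the 16 plates from 1 to 16 and 20 of the 28 from 30 to 57. Of the 13, 5 held no upper probe, and none of plates 1 to 16 did, but 11 of plates 30 to 57 did.

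**Figure D2:**
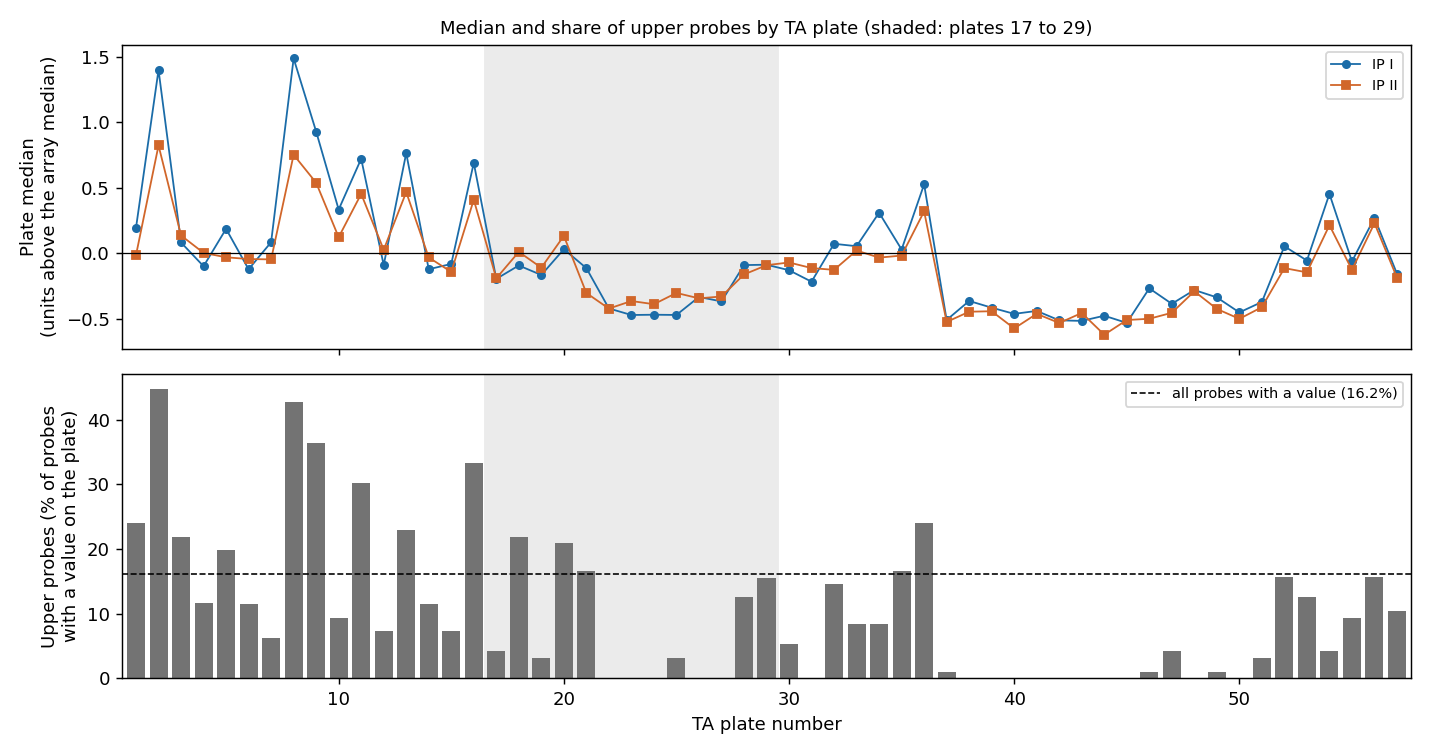
Upper panel: median value of each TA plate from 1 to 57 in units above the array median, for IP I (circles) and IP II (squares). Lower panel: upper probes as a percentage of the probes with a value on the plate, with the share over the whole array (16.2%) as a dashed line; plates 17 to 29 are shaded, and plates 22 to 27 form a trough in both panels with medians between -0.47 and -0.30 units. Plates 37 to 51 form a longer trough outside the set, with medians down to -0.53 units in IP I and -0.62 in IP II.

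When the mean of each plate was tested against the array median with limma over all 231 plates, plates 22 to 27 were all called below, and plates 18 and 20 were called above. Of all plates, 13.4% were called below and 61.5% above, and a plate mean is raised by each upper probe it includes. Of the 28 plates from TA plate 30 to 57, 13 were called below and 8 above. Of the 13 plates, plate 24 had the lowest mean, at -0.37 units in IP I and -0.36 in IP II (mean -0.37 ± 0.01, SD, n = 2, limma adjusted p = 0.00125). Plate 25 came closest to the threshold, at -0.29 and -0.21 units, on average -0.25 ± 0.05 (SD, n = 2, limma adjusted p = 0.0280). Plate 18 was at 0.50 and 0.42 units, on average 0.46 ± 0.05 (SD, n = 2, limma adjusted p = 7.08e-05), and plate 20 was at 0.39 and 0.36 (limma adjusted p = 0.000959). At a stricter adjusted p of 0.01, 3 of the 13 plates were called below, and with the array mode as zero none was, so the calls refer to the median of the array as zero. With plate medians in place of plate means, plates 22 to 27 remained called below and none of the 13 was called above.

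At the scale of 12-well rows, 70 of the 103 rows with a value had a median below 0 in both replicates, against 39 of 128 on plates 1 to 16. On TA plates 30 to 57 it was 155 of 223 rows, so this share was not particular to the set. The longest unbroken series of such rows ran for 16 rows, from row F of plate 23 to row E of plate 25. The longest series had 4 rows on plates 1 to 16 and 72 rows on TA plates 30 to 57. The lowest row was row A of plate 25, at -0.74 units in IP I and -0.69 in IP II, and the highest was row A of plate 18, at 2.88 and 1.87. Row A of plate 18 holds the island TA18A04 to TA18A10 described below.

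The low part was described next by its stretches, that is, by sets of probes in name order with no upper probe between them. These were found from the values and carry no test. The longest ran from TA21D06 to TA25F01 over 359 probes, and the second from TA25F05 to TA28C11 over 251 probes. Together they held 52.3% of the members. Next in length were the stretches from TA19C09 to TA20C12, with 96 probes, and from TA17B07 to TA18A03, with 79. The longest stretch on plates 1 to 16 had 109 probes, and the 2 longest together held 12.3% of the probes. TA plates 30 to 57 had a longer one than the set, with 759 probes, and their 2 longest held 38.2% of the probes, so long low stretches were not limited to plates 17 to 29. The length depends on the rule, since the longest stretch here was 148 probes at 0.5 units and 207 with the array mode as zero.

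Within the first stretch the median was -0.45 units in IP I and -0.40 in IP II, and 81.1% of its probes lay below the array median in both replicates. The values at the 5th and 95th percentiles were -0.85 and 0.49 units in IP I and -0.80 and 0.24 in IP II. The second stretch was slightly higher, with a median of -0.36 units in IP I and -0.33 in IP II and 74.5% of its probes low in both. The stretches of 96 and 79 probes had medians of -0.21 and -0.23 units in IP I and -0.11 and -0.21 in IP II. The 2 long stretches were therefore also the lowest of these 4 in both replicates.

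Stretches found in one replicate were read in the other, which had no part in choosing them. IP I alone had no probe at 1 unit or more from TA21D06 to TA24E06, a stretch of 256 probes. In IP II these probes had a median of -0.42 units, 87.1% lay below the array median and 1 reached 1 unit. IP II alone gave 250 probes from TA21D06 to TA24D11, which in IP I had a median of -0.45 units with none at 1 unit. The low values of plates 22 to 24 were thus present in each replicate taken alone. Each replicate alone broke the first stretch on plate 24, however. A second part had 101 probes in IP I, from TA24E08 to TA25E12, and 108 in IP II, from TA24E01 to TA25F01. Read in the other replicate, these parts had medians of -0.32 and -0.47 units. The second long stretch also broke up in either replicate taken alone. Its parts in IP I included 70 probes from TA25G09 to TA26E09 and 111 from TA27A08 to TA28C01. In IP II these 2 parts had medians of -0.37 and -0.34 units. IP II alone gave 142 probes from TA25F05 to TA27B08 and 78 from TA27E04 to TA28C11. Of these, 5 and 3 reached 1 unit in IP I.

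The first stretch opened with a drop of over 1 unit between neighbouring wells. TA21D05, the last upper probe before it, was at 2.29 units in IP I and 1.25 in IP II. The next well, TA21D06, was at 0.96 and 0.05. At its far end TA25F01 stood at 1.23 and 0.56 units, beside the upper probe TA25F02 at 2.05 and 1.08. The second stretch began with TA25F05 at 1.25 and 0.48 units, after TA25F04. It ended with TA28C11 at 0.05 and -0.15, directly before TA28C12 at 1.85 and 1.05. Its first probe still stood high in IP I, whereas its last probe was near the array median in both replicates.

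A single island of 3 probes, TA25F02 to TA25F04, separated the 2 long stretches. Its mean was 2.01 units in IP I and 1.15 in IP II, and its highest probe TA25F03 was at 2.20 and 1.37 (mean 1.79 ± 0.59, SD, n = 2, limma adjusted p = 0.00179). Its height in IP II was the second lowest among the 24 islands of the set. Its surroundings were raised as well. TA25E11, TA25E12 and TA25F01 lay above 0.5 units in both replicates, and so did TA25G05, TA25G06 and TA25G08 further on. Plate 25 in this way held 9 of the 19 probes of plates 22 to 27 that passed the rule of 0.5 units. With a rule of 1.5 units the island was lost and the longest stretch covered 616 members.

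Other raised probes on plates 22 to 27 were few. TA23D04 was at 0.91 units in IP I and 0.88 in IP II, and the pair TA23E09 and TA23E10 averaged 0.82 and 0.72. The row of this pair, TA23E, had a median of 0.24 units in each replicate and was the only row of plates 22 to 27 above 0 in both. TA26E10 reached 1.44 units in IP I but 0.80 in IP II, and TA27A07 reached 1.55 and 0.77. TA27B09 was the reverse, at 0.70 and 1.07. On plate 22 no probe exceeded 0.56 units in IP I or 0.52 in IP II, but only 60 of its wells carried a value.

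**Figure D3:**
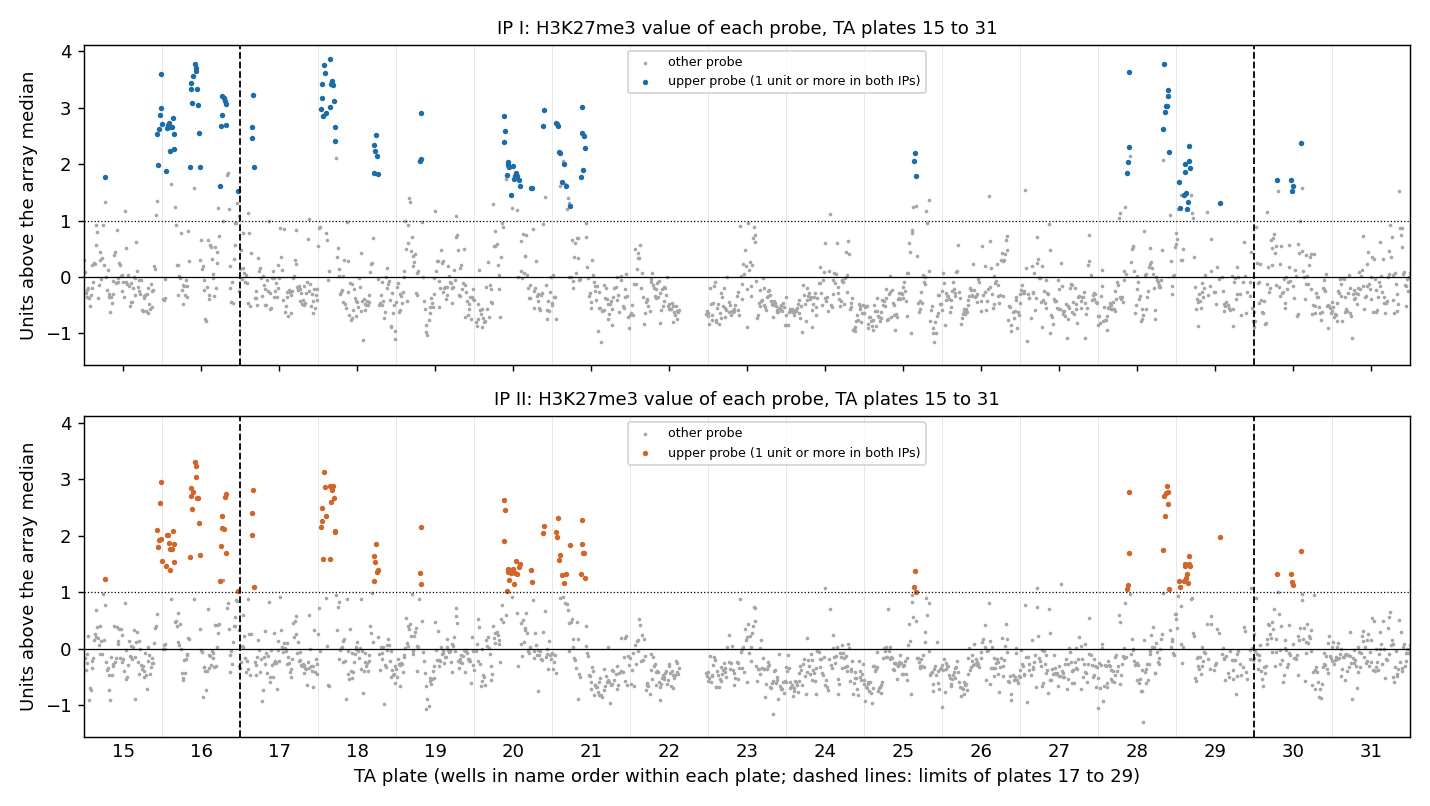
Value of each probe in units above the array median (vertical axis) against TA plate, with wells in name order (horizontal axis), for IP I (upper panel) and IP II (lower panel). Coloured points are upper probes, the dotted line is 1 unit and the dashed lines are the limits of plates 17 to 29; upper probes are grouped on plates 17 to 21 and 28 to 29, and plates 22 to 27 show only the 3 of plate 25.

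The upper probes were then grouped into islands, meaning unbroken runs of upper probes in consecutive wells. The set held 24 islands, of which 6 were single probes, 10 had 2 to 4 probes and 8 had 5 to 9. None had 10 or more, and the longest had 9. Plates 1 to 16 held 90 islands, 2 of them with 10 or more probes. Per 100 probes this was 2.06 islands here and 5.86 on plates 1 to 16. The mean length was 3.71 probes here and 3.63 there, so the sets of plates differed more in the number of islands than in their length. Of the 24 islands, 18 lay on plates 17 to 21, 1 on plate 25 and 5 on plates 28 and 29.

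The strongest islands stood on plate 18. The island TA18A04 to TA18A10 covered 7 probes with a mean of 3.24 units in IP I and 2.40 in IP II. Its top probe TA18A08, the highest of all members by mean, was at 3.76 and 3.13 (mean 3.45 ± 0.44, SD, n = 2, limma adjusted p = 0.000313). Only 4 probes separated it from the island TA18B03 to TA18B10, whose 8 probes averaged 3.17 and 2.44 units with TA18B04 on top at 3.86 and 2.89. The remaining island of the plate, TA18F09 to TA18G02, was lower, with 6 probes at 2.15 and 1.497, and its top probe TA18F12 stood at 2.52 and 1.86. The first island of the set, TA17B03 to TA17B06, was the only one on plate 17, with 4 probes at 2.58 units in IP I and 2.07 in IP II and TA17B05 on top at 3.22 and 2.81. TA19C06 to TA19C08 was the only one on plate 19, with 3 probes at 2.35 and 1.54.

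Plate 20 held 7 islands, none with more than 5 probes. TA20D01 to TA20D03 averaged 2.61 units in IP I and 2.33 in IP II, with TA20D02 on top at 2.85 and 2.64. TA20H02 to TA20H03 averaged 2.82 and 2.11, with TA20H03 at 2.96 and 2.18. Between them in name order lay TA20D05 to TA20D08 at 1.94 and 1.25, the single probe TA20D10 at 1.45 and 1.34, and TA20E01 to TA20E05 at 1.82 and 1.35. The values inside these islands were even, as their top probes TA20D07 and TA20E04 reached only 2.03 and 1.84 units in IP I and 1.40 and 1.56 in IP II. Well TA20D09 between the first 2 of these carries no value here. TA20E08 to TA20E09 averaged 1.67 and 1.47 units, and TA20F11 to TA20F12 averaged 1.58 and 1.29, the lowest of the plate's islands of 2 or more probes in IP I.

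Most of these probes belonged to 1 raised part of the plate. TA20D04, which parts the first 2 islands, missed the rule through IP II alone, at 1.74 and 0.59 units. TA20D11 did the same at 1.23 and 0.91. All probes with a value from TA20D01 to TA20E06 thus lay above 0.5 units in both replicates.

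On plate 21 the island TA21A06 to TA21A10 averaged 2.51 units in IP I and 1.92 in IP II over 5 probes, with TA21A08 on top at 2.68 and 2.31. TA21C12 to TA21D05 averaged 2.34 and 1.68 over 6 probes with TA21D01 at 3.01 and 2.28, and it was the last island before the long stretch. Between them stood 4 single upper probes. TA21B01, TA21B03 and TA21B06 lay among raised neighbours, such as TA21B02 at 2.06 and 0.91 units. TA21B11 was at 1.25 and 1.84 units, and neither of its neighbours reached 0.5 units in either replicate. TA21B10 was at -0.01 and -0.05 and TA21B12 at 0.00 and 0.47.

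Beyond the low plates, TA28C12 to TA28D03 opened the second group of islands with 4 probes at 2.46 units in IP I and 1.66 in IP II. Its top was its last probe, TA28D03, at 3.64 and 2.78. TA28G09 to TA28H04 was the strongest of this group, with 8 probes at 3.01 and 2.35 and TA28G10 on top at 3.78 and 2.70. TA29A10 to TA29B06 was the longest island of the set, with 9 probes, but low, at 1.74 and 1.38, with TA29B05 on top at 2.32 and 1.63. TA29A04 to TA29A05 had a mean of 1.46 and 1.14 units, and its height in IP II was the lowest of the 24. The single probe TA29E07 was at 1.32 units in IP I and 1.97 in IP II (mean 1.65 ± 0.46, SD, n = 2, limma adjusted p = 0.00167). It was the highest single upper probe by mean, followed by TA21B03, at 2.01 and 1.17, and TA21B11. The wells on both sides of TA29E07 carry no value here, so its extent cannot be read.

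IP I gave the higher mean in 22 of the 24 islands. Across the whole array IP I also has the wider range. The exceptions were the single probes TA21B11 and TA29E07.

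**Figure D4:**
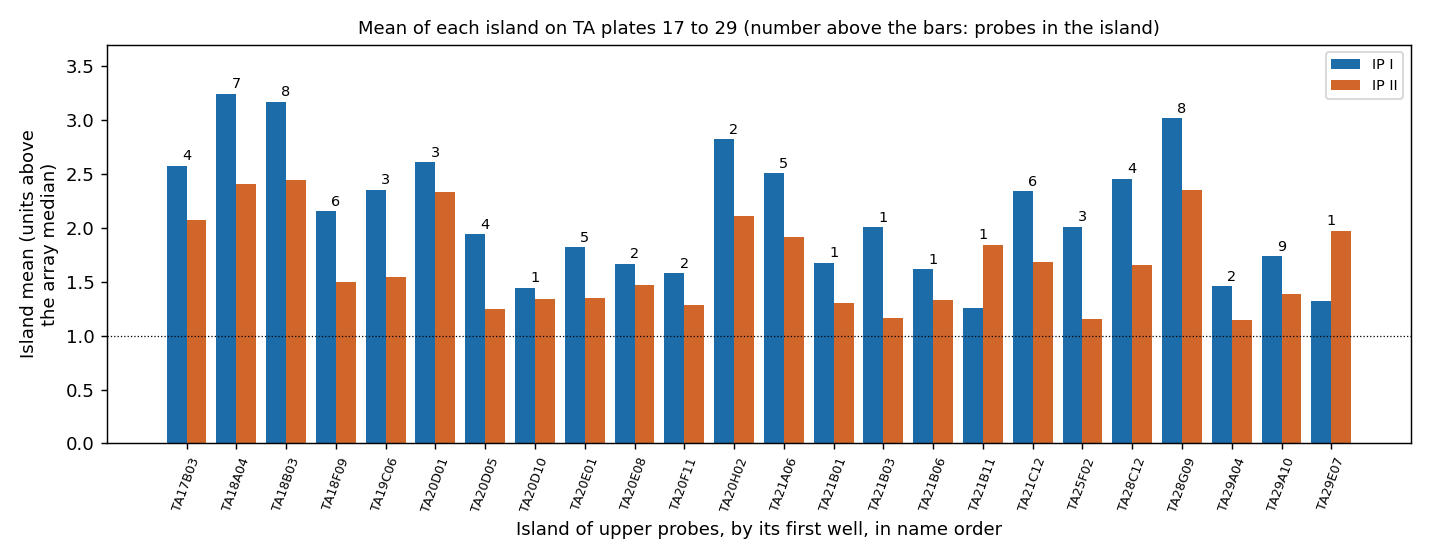
Mean value of each of the 24 islands of upper probes on TA plates 17 to 29, in units above the array median, for IP I and IP II, in name order and labelled by the first well. The number above each pair of bars is the number of probes in the island; the islands TA18A04 and TA18B03 are the highest in IP I at 3.24 and 3.17 units, and TA25F02 is the only one between plates 21 and 28.

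Runs of high probes found in one replicate were read in the other, and most of the long ones stayed high there. Runs of 5 or more probes found in IP I alone numbered 11 and averaged 1.64 ± 0.46 units in IP II (SD over runs), and 10 of them reached 1 unit there. Runs of 2 to 4 probes, also 11, averaged 1.16 ± 0.49 units, and 7 reached 1 unit. Single probes, 14 in number, averaged 0.86 ± 0.47 units, and 2 of them reached 1 unit. On plates 22 to 27, none of the 5 single probes and not the 1 longer run found in IP I reached it in IP II. That run averaged 0.90 units there. On plates 1 to 16 the same 3 classes averaged 1.58 ± 0.33 (38 runs), 1.08 ± 0.44 (51 runs) and 0.83 ± 0.48 units (19 runs). In the other direction, runs found in IP II averaged 2.50 ± 0.59 units in IP I for 5 or more probes (8 runs), 2.15 ± 0.48 for 2 to 4 (10 runs) and 1.13 ± 0.60 for single probes (10 runs, 6 of them at 1 unit). The values on plates 1 to 16 were 2.59 ± 0.39 (27 runs), 2.36 ± 0.48 (42 runs) and 1.74 ± 0.68 (24 runs, 20 of them at 1 unit). On plates 22 to 27, the 1 run of 2 to 4 probes found in IP II averaged 2.01 units in IP I. None of the 3 single probes found there in IP II reached 1 unit in IP I. Between the sets of plates the classes differed by less than the spread over runs, except the single probes found in IP II, which were lower here by about the size of that spread. Runs of the same replicates are not independent, and these differences were not tested.

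Islands ended within a few wells. At the 41 island ends with a value in the next well, the outermost upper probe had a median of 1.95 units in IP I and 1.34 in IP II, and the next probe had 0.98 and 0.49. In 20 of the 41 cases the next probe still reached 0.5 units in both replicates, and in 5 it lay below the array median in both. It reached 1 unit in a single replicate in 20 of the 41 cases, against 92 of 180 on plates 1 to 16. Some fall at an island end follows from the rule, since the next probe has to miss 1 unit in at least 1 replicate. These medians are therefore a description. At 180 ends on plates 1 to 16 the medians were 2.09 and 1.45 inside and 0.99 and 0.53 outside, with 99 of the 180 next probes at 0.5 units or more in both.

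Away from islands the level was lower with each step in distance in IP I. Members 2 wells from the nearest upper probe had a median of 0.28 units in IP I and 0.04 in IP II, and those at 6 to 11 wells had -0.25 and -0.23. At 24 to 47 wells it was -0.35 and -0.26 (191 probes), and at 48 wells or more it was -0.42 and -0.37 (434 probes). On plates 1 to 16 the level was alike close to islands, at 0.25 and 0.11 units 2 wells away. It stood at -0.16 and -0.17 at 6 to 11 wells and at -0.03 and -0.01 at 24 to 47 wells (159 probes). Only 15 probes of plates 1 to 16 lay 48 wells or more from an upper probe, against 434 here. On TA plates 30 to 57 the 952 probes at that distance had medians of -0.45 and -0.50 units. As distance was counted from upper probes, which the values define, these medians are a description.

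**Figure D5:**
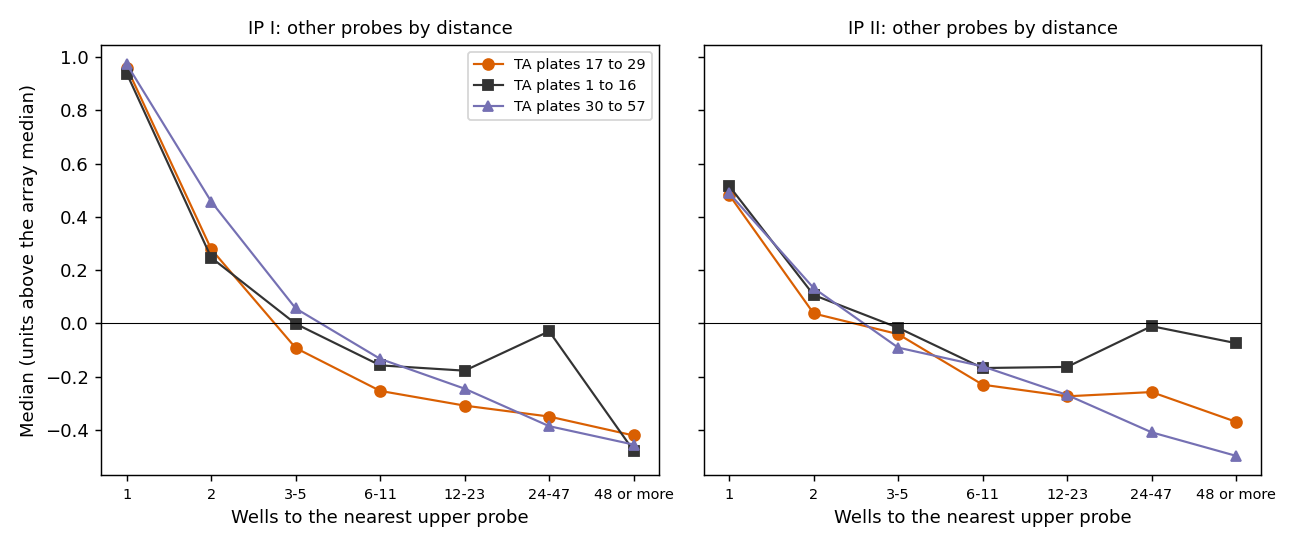
Median value, in units above the array median, of probes that are not upper probes (vertical axis) by the number of wells to the nearest upper probe (horizontal axis), for IP I on the left and IP II on the right. The sets of plates have similar medians at 1 well; at 24 to 47 wells TA plates 17 to 29 lie at -0.35 and -0.26 units and TA plates 1 to 16 at -0.03 and -0.01, and the last point of plates 1 to 16 rests on 15 probes.

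The limits of the set were examined at both ends. Plate 16, just before it, held 32 upper probes of 96 (33.3%) and had a median of 0.69 units in IP I and 0.41 in IP II. Plate 17 held 4 of 94 (4.26%) with a median of -0.20 and -0.19. The step between the 2 plates was -0.89 units in IP I and -0.60 in IP II. It depended on the window: over 192 wells on either side it was -0.30 and -0.15, with 20.3% upper probes before and 13.2% after, because plate 15 held few upper probes and plate 18 many. The longest low stretch began only on plate 21, after the island that ends at TA21D05.

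At the exact plate limit the values were intermediate. The last upper probe of plate 16, TA16H10, was at 1.52 units in IP I and 1.02 in IP II. TA16H11 was at 1.08 and 0.32, TA16H12 at -0.25 and -0.31, and TA17A01, the first member, at 0.15 and -0.34. The drop thus fell between the last wells of plate 16, and no jump coincided with the change of plate.

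At the far limit the step depended on the window as well. Plate 29 had a median of -0.09 units in both replicates and plate 30 had -0.13 and -0.07, with 15.6% and 5.32% upper probes. The step between their medians was -0.04 units in IP I and 0.02 in IP II. Over 48 wells on either side it was 0.24 and 0.17, and over 24 wells it was 0.15 in both. The replicates differed in sign over 12 wells, at -0.08 and 0.07, and over 192 wells, at -0.09 and 0.04. The last member, TA29H12, was at -0.89 and -0.18 units, and TA30A01 was at -0.62 and 0.25. A stretch of 58 probes without an upper probe, from TA29E09 to TA30C04, ran across this limit, and 31 of its probes were members.

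Wells without a value were frequent on these plates. Of 1248 well positions, 82 (6.57%) carry no value here, against 1 of 1536 on plates 1 to 16. The set accounts for 46.9% of the 175 such positions on all TA plates. Gaps were not limited to it, as TA plates 30 to 57 lacked a value at 91 of 2688 positions (3.39%). Of these, 34 were on plate 38 and 54 on plate 39. The 82 positions of the set formed 48 gaps, of which 44 were single wells. The largest gap covered 32 wells of plate 22, from TA22F02 to TA22H09, inside the longest low stretch. A second concentration was plate 29, with 19 wells.

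The probes on the 2 sides of the large gap were low: the well before it was at -0.59 units in IP I and -0.35 in IP II, and the well after it at -0.66 and -0.43. The longest stretch includes 45 positions without a value among 404, and if such positions are taken to end a stretch, the longest had 104 probes. Of the 48 island ends, 7 lay beside a well without a value. A single gap, TA20D09, had an upper probe on both sides, and 5 others had one on a single side. The 89 members beside a gap had a median of -0.26 units in IP I and -0.19 in IP II with 6.74% upper probes, against -0.29 and -0.24 with 7.71% for the other 1077.

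The lowest members were scattered. TA27A09 was at -1.13 units in IP I and -0.94 in IP II, with a mean of -1.04 ± 0.14 (SD, n = 2; limma adjusted p = 0.00523). It lay 2 wells from the raised probe TA27A07, and the 4 probes within 2 wells of it averaged 0.26 and 0.05 units. TA19D02 was at -0.97 and -1.07 (limma adjusted p = 0.00522), and TA19D03 beside it was at -1.02 and -0.89. The 3 probes with a value within 2 wells of TA19D02 averaged -0.82 and -0.66 units. Low values were not limited to these 2 probes. TA19D05, the next probe with a value, was at -0.76 and -1.01, and row D of plate 19 had a median of -0.53 and -0.58. TA28E08 was at -0.68 and -1.30 units, and TA21F01 was at -1.16 and -0.82. Of these 5, only TA21F01 and TA27A09 fell inside the 2 long stretches. No member lay at least 1 unit below the array median in both replicates, which 0.046% of all probes did.

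The replicates ranked the members broadly alike, though less so than on plates 1 to 16. Over the 1166 probes, which are not independent samples and share their arrays, Pearson's r was 0.912 and Spearman's rho was 0.732, against 0.935 and 0.852 on plates 1 to 16. On plates 22 to 27, where the range was narrow, r was 0.758 and rho was 0.626. The pooled SD of the 2 values of a probe was 0.264 units on plates 17 to 29, 0.211 on plates 22 to 27 and 0.364 on plates 1 to 16. By this SD the replicates were closest on plates 22 to 27, where the level was lowest, but their agreement in rank was weakest there.

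Neighbouring wells remained alike inside the low plates. A probe in IP I and the next well in IP II correlated at r = 0.758 on plates 17 to 29 (1117 pairs) and at 0.432 on plates 22 to 27 (509 pairs). At 5 wells the values were 0.368 and 0.153. These figures are descriptions over probes of the same arrays, and an effect of the well position common to every array was not tested.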

How the data were processed

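Per the labels, H3K27me3 immunoprecipitates I and II were each hybridised against input on 2 arrays with exchanged dyes. The authors deposited 1 score for each probe, on a scale that resembles a log ratio. How they normalized it, its log base and direction, and the array design are not stated in any source used. Single channel intensities were not used here.

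The 2 arrays of a dye exchange, identical in all values, were averaged, and the median was subtracted, taken over the 21740 probes with a plate and well name and a value. Probes, and the means of all 231 plates with at least 20 probes, were tested with limma (lmFit and eBayes, intercept only, two-sided, Benjamini-Hochberg at 0.05), which has 1 residual degree of freedom per feature and takes most of its variance from the other features. Medians of sets of plates were compared by an exact sign permutation test over the 2 replicates. Missing wells end an island but not a stretch. The limma step was checked on planted shifts, and the search for runs on a planted order. Mode centring used a kernel density.

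Named probes were the highest probe or ends of islands of 2 or more probes, the 3 highest single upper probes, the 5 lowest members, ends of stretches, and probes at the plate limits. Of the islands, the top probe is given for the 10 longest and the 5 highest, with a tie at 4 probes. Beyond this rule, the other islands and the raised probes of plates 20, 21, 22 to 27 and those beside gaps were picked after their values were seen. The members, plate groups and rules were chosen with earlier results of these data known. The grouping of plates 17 to 21, 22 to 27 and 28 to 29 follows the values. The alternatives were other centrings and scalings, a stricter threshold, another variance prior, plate medians, other rules of size, single replicates and other plate limits. No sequence is printed, as no probe sequence was used here. Limma 3.58.1 ran in R 4.3.3. Other steps used scipy 1.17.1, numpy 2.4.6, pandas 2.3.3 and matplotlib 3.10.9 under Python 3.11.15.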

Additional observations from a re-analysis of the deposited data

How the results depend on the processing

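Of 55 repeats of 8 results, 26 stayed close to the reported value, 27 moved and 2 exchanged sides. Close is a wide rule here. It means within 1.5-fold for a count, and within the SD of the 2 replicate differences for the median difference. Left as deposited, without centring, 56 members were called above, 983 below, no plate above and 13 plates below, with 23 upper probes and a longest stretch of 620 probes. Centring on the mode gave 7 members called below, 5 plates above, 0 plates below and a longest stretch of 207. Equal spread of the replicates gave 395 members below and 5 plates above, quantile normalization 417 and 5, and the trended, robust prior 497 and 5. At adjusted p under 0.01, 9 members and 3 plates were called below. Plate medians gave 0 plates above (limma). Rules of 0.5 and 1.5 units gave 145 and 47 upper probes and longest stretches of 148 and 616. Positions without a value, taken as ends, gave 104. The median difference from plates 1 to 16 (-0.46) was -0.30 without upper probes and, chosen after the data were seen, -0.30 without plates 22 to 27. Turning the sign, also chosen later, gave 155 members above, 157 below and 0 upper. The moves under centring, thresholds, rules and turned sign follow from their construction, and the cause of the others was not tested.

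With 1 replicate left out, upper probes numbered 93 to 127, the longest stretch 250 to 256, and the difference was -0.56 to -0.36 units. The limma calls have no such repeat, as 1 replicate leaves no residual degree of freedom. No paired analysis was possible because all samples form 1 group. Dim probes were not set apart, as signal over background was not used.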
